A study of Mus musculus with 10 samples.

Results

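The proteasome subunits were followed in brain cortex of 6-month-old mice. They were taken from a list of gene symbols, by a rule that names no measured value, and all 38 listed genes were among the 22198 genes of the deposited table. Of these, 5 belong to the immunoproteasome (Psmb8, Psmb9, Psmb10, Psme1 and Psme2) and 33 to the constitutive core, the regulatory particle and other activators. The ctrl group held 5 libraries labelled as wild-type for Mic19 and the BKO group held 5 libraries labelled as Mic19 knockout, and the mice had received no treatment. Mic19, encoded by Chchd3, is a subunit of the complex that shapes the cristae of mitochondria. The labels name neither a driver of the deletion nor the cells that carry it, nor whether the 5 libraries of a group stem from 5 different mice, so p-values measure the spread between these libraries only. RNA levels are in FPKM, which divides fragments by transcript length and library size, so levels can be compared between genes.

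The proteasome degrades proteins tagged with ubiquitin. Its barrel-shaped core, the 20S particle, is built of outer rings of alpha subunits and inner rings of beta subunits. Of the beta subunits, Psmb5, Psmb6 and Psmb7 carry the chymotrypsin-like, caspase-like and trypsin-like activities. The 19S regulatory particle, made of the ATPases Psmc1 to Psmc6 and of the Psmd subunits, recognises, unfolds and feeds in the substrate. Interferons induce Psmb8, Psmb9 and Psmb10, which take the places of Psmb5, Psmb6 and Psmb7 in newly assembled cores, and also Psme1 and Psme2, which form the activator ring PA28 alpha-beta. Cores with these subunits favour peptides that fit MHC class I. In brain the immunoproteasome is known mainly from glia under inflammation, while neurons mostly hold the constitutive form.

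Of the catalytic pairs compared below, Psmb10 and Psmb7 are left out here, and no promoter was at hand for Psmb7. Promoter sequences are shown for both MHC-linked immunosubunits and for the subunits they replace. Each is 300 bases long, from 250 bases before to 50 bases after the annotated start, 5′ to 3′ on the gene's strand, from RefSeq on build GRCm38.p6 (the deposited values rest on mm39, and no coordinates of the 2 builds are combined). The windows are chr17:34197945-34198244 on the plus strand for Psmb8, chr14:54617946-54618245 on the minus strand for Psmb5, chr17:34187281-34187580 on the minus strand for Psmb9 and chr11:70525107-70525406 on the plus strand for Psmb6. In Psmb8 the capitals mark a match to the gamma-activated sequence TTCNNNGAA, an interferon response element. Those in Psmb5 and Psmb6 mark a match to the antioxidant response element core TGACNNNGC, which NRF1 and NRF2 bind. In Psmb9 they mark the 225 bases that lie between its start and that of Tap1, a peptide transporter gene read in the opposite direction.
Psmb8: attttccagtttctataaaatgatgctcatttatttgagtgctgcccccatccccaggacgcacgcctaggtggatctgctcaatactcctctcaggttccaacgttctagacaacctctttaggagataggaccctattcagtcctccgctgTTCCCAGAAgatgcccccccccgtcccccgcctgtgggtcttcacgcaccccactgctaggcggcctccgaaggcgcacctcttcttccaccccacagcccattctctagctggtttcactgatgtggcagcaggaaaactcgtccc
Psmb5: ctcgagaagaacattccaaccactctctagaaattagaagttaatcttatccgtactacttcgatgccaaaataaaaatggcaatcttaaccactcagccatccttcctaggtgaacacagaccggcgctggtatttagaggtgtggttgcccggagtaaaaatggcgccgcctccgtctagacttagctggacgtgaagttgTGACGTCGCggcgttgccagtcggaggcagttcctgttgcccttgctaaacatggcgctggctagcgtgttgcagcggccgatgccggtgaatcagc
Psmb9: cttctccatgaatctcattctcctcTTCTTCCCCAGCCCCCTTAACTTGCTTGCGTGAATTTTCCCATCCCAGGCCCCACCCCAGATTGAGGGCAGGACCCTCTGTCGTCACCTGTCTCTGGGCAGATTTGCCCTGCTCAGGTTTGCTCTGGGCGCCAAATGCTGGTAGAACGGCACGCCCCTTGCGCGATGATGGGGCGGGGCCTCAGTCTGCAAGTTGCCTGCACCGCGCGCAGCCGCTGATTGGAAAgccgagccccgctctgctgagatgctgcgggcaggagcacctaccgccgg
Psmb6: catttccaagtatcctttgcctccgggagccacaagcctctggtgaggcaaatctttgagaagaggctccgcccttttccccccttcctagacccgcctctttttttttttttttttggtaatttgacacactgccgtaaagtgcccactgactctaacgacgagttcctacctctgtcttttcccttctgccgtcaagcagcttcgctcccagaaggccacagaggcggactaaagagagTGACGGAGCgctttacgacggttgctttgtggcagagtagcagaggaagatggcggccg

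A promoter was at hand for 32 of the 38 members. Both strands were searched. The gamma-activated sequence was found in 2 of the 32 (Psmb8 and Psmd2), against 8.3% of all 32851 promoter windows. The interferon-stimulated response element core, here GAAA repeated after 2 further bases, was found in 3 (Psme1, Psmb3 and Psmd4), against 3.44% of all windows. The antioxidant response element core was found in 5 (Psmb5, Psmb6, Psmc6, Psmd12 and Psme4), against 12.4% of all windows. Of the 5 immunoproteasome promoters, 1 held the first of these motifs, 1 the second and 0 the third, too few to set against those shares. The matches in Psmb8, Psmb5 and Psmb6 began at bases -97, -47 and -9 from the start. These are matches of letters only.

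The libraries were alike in scale, with FPKM sums of 730340 to 766786. Depth relative to one another, estimated from the steps between low values, was 0.834 to 1.29. The targeted gene, Chchd3, went against the labels: it averaged 88.2 ± 4.54 FPKM in the libraries labelled BKO and 78.4 ± 3.53 FPKM in those labelled ctrl (SD over 5 libraries each; log2 difference 0.17, SE 0.0472, limma adjusted p = 0.0528). Directions below are therefore those of libraries as labelled, and a value for the whole gene cannot show whether single exons were lost. Slc17a7, a marker of cortical excitatory neurons, was at 560.2 to 692 FPKM in all libraries. Choroid plexus transcripts set the libraries apart: Ttr, the main one, was at 1098 to 2720 FPKM in 6 libraries and at 38.9 to 89.9 FPKM in ctrl 2, ctrl 4, BKO 3 and BKO 4. Values within these 2 sets, chosen after seeing the data, are given below where they bear on a member. In bulk tissue, fewer cells of a type and less RNA per cell cannot be told apart.

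No proteasome subunit passed the test between the genotypes. The constitutive subunits lay within 0.10 on the log2 scale of their ctrl level. The 3 immunoproteasome catalytic subunits were 18.8% to 52.7% higher on average in BKO, with overlapping groups. Of the 38 members, all of which passed the filter on low values, 0 rose and 0 fell (limma, adjusted p under 0.05), where 5.79% of 14447 tested genes were called, 3.32% as higher and 2.46% as lower. At an unadjusted limma p under 0.05 there were 5 members (Psmb8, Psmb9, Psmb10, Psme3 and Psmd12), or 5 of 38, where 17.5% of all genes tested stood at that level. The median log2 difference was 0.25 over the 5 immunoproteasome members and -0.018 over the 33 constitutive members, beside 0.00 over all genes tested. All 5 immunoproteasome differences were above 0. Of the constitutive ones 14 were above and 19 below.

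**Figure D1:**
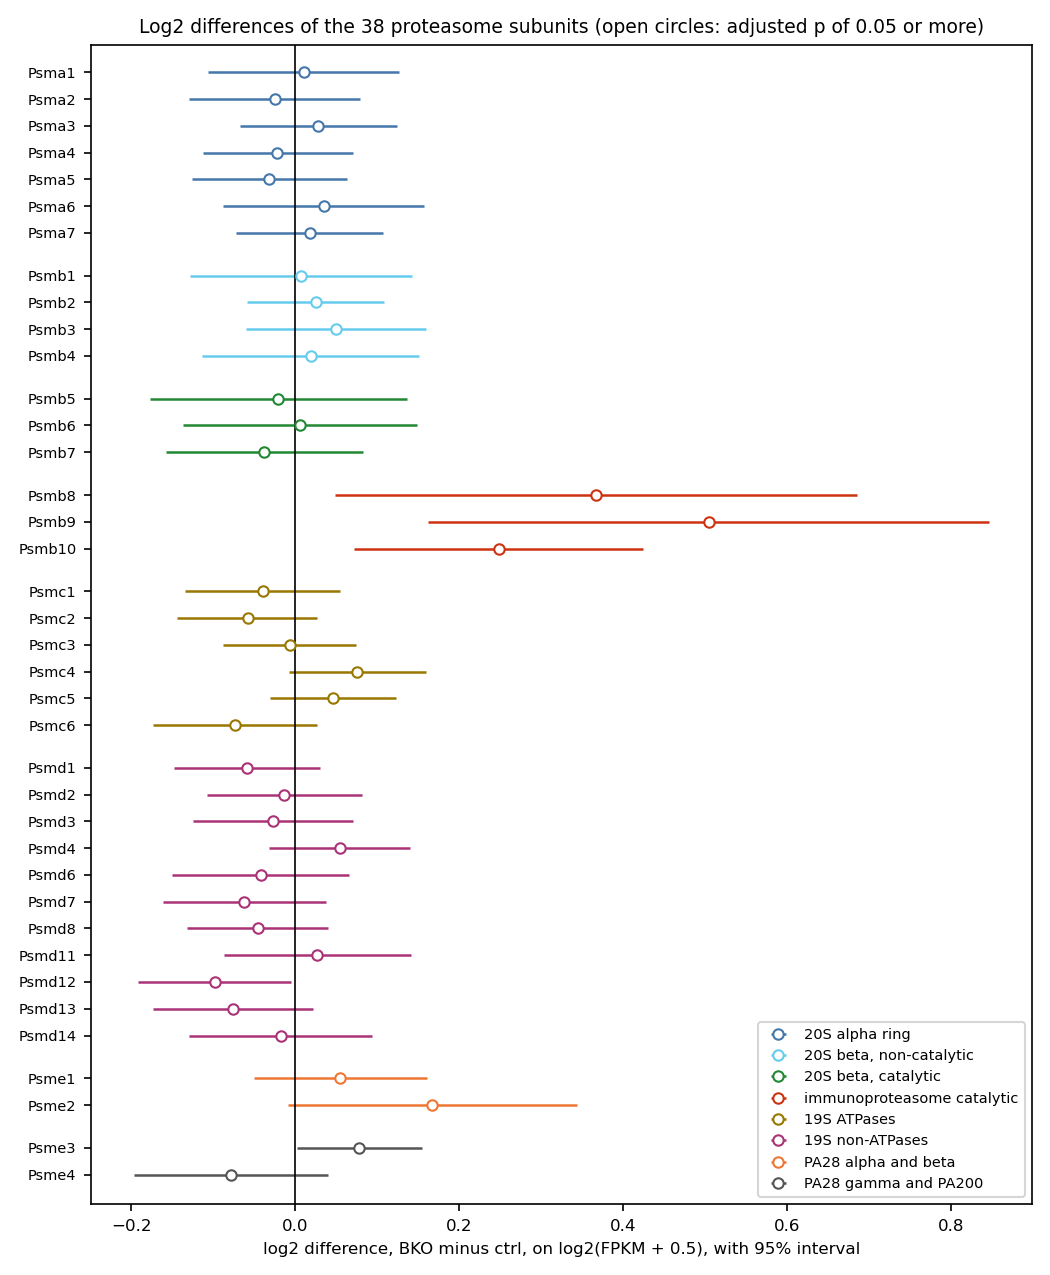
Log2 difference between BKO and ctrl (x axis, on log2(FPKM + 0.5)) for each of the 38 subunits, grouped by role; points are limma estimates from 5 libraries a group and bars are 95% intervals. The red points of Psmb8, Psmb9 and Psmb10 lie at 0.37, 0.50 and 0.25 with wide intervals, the constitutive subunits lie between -0.10 and 0.08, and all symbols are open because none passed the adjusted threshold.

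Psmb8 encodes the immunosubunit that replaces the chymotrypsin-like Psmb5. Its level was 4.47, 4.54, 2.73, 6.17 and 4.37 FPKM in ctrl 1 to 5 and 5.85, 6.33, 5.56, 5.43 and 5.51 FPKM in BKO 1 to 5. The ctrl libraries were spread widely, from the lowest value of all in ctrl 3 to the second highest in ctrl 4, while the BKO libraries lay close together above the other 4 ctrl libraries. The mean went from 4.46 ± 1.22 to 5.74 ± 0.368 FPKM (SD over 5 libraries each). The log2 difference was 0.37 (SE 0.149, 95% interval 0.048 to 0.69, limma adjusted p = 0.204). It fell short of the threshold with any library left out, at 0.22 without ctrl 3 (limma adjusted p = 0.381) and 0.48 without ctrl 4 (limma adjusted p = 0.0520). Among the 6 libraries with high Ttr it was 0.58 (limma adjusted p = 0.151), and among the 4 with low Ttr, which hold ctrl 4, it was 0.048 (limma adjusted p = 0.954).

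Psmb9 encodes the immunosubunit that replaces the caspase-like Psmb6, and it was the lowest of all members. It stood at 1.40, 1.76, 1.83, 2.66 and 1.68 FPKM in ctrl 1 to 5 and at 1.99, 2.78, 3.61, 2.79 and 3.08 FPKM in BKO 1 to 5. Of the BKO libraries 4 exceeded every ctrl library, and BKO 1 lay below ctrl 4. The log2 difference was 0.50 (SE 0.160, 95% interval 0.16 to 0.85, limma adjusted p = 0.0898), the largest among the members. It passed without ctrl 4 (0.61, limma adjusted p = 0.0301) or without BKO 1 (0.61, limma adjusted p = 0.0375). Over all libraries left out in turn its adjusted p ran from 0.0301 to 0.204. The log2 difference was 0.53 in the libraries with high Ttr and 0.46 in those with low Ttr, and neither passed (limma adjusted p = 0.2453 and 0.5155).

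Psmb10 encodes the immunosubunit that replaces the trypsin-like Psmb7 and was the most abundant of these 3. Its level was 37.5, 32.2, 39.4, 37.7 and 44.8 FPKM in ctrl 1 to 5 and 41.9, 40.5, 49.8, 45.5 and 49.8 FPKM in BKO 1 to 5. The groups overlapped through ctrl 5, which was above BKO 1 and BKO 2. The log2 difference was 0.25 (SE 0.0823, 95% interval 0.071 to 0.42, limma adjusted p = 0.108). It passed without ctrl 5 (0.31, limma adjusted p = 0.0308), and with other libraries left out its adjusted p reached 0.230. Its difference was 0.12 among the libraries with high Ttr and 0.45 among those with low Ttr, and neither passed (limma adjusted p = 0.704 and 0.0918).

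Psme1 and Psme2 encode the alpha and beta subunits of the PA28 ring, which opens the core and speeds the release of peptides. Psme1 was at 53.3, 46.4, 49.2, 49.1 and 54.4 FPKM in ctrl 1 to 5 and at 50.8, 51.4, 53.2, 53.4 and 53.1 FPKM in BKO 1 to 5, so that every BKO value lay inside the ctrl range. Psme2 was at 28.4, 25.1, 30.8, 30.8 and 35.0 FPKM in ctrl and at 34.6, 29.5, 37.5, 33.4 and 33.2 FPKM in BKO, with only BKO 3 above all ctrl libraries. The log2 differences were 0.055 (95% interval -0.050 to 0.16, limma adjusted p = 0.630) for Psme1 and 0.17 (95% interval -0.0090 to 0.34, limma adjusted p = 0.318) for Psme2. For Psme1 it was -0.014 among the libraries with high Ttr and 0.16 among those with low Ttr, and for Psme2 it was 0.049 and 0.34. Psme2 has a near-identical copy, Psme2b, listed at 0.810 to 2.24 FPKM, and reads could be divided between them.

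**Figure D2:**
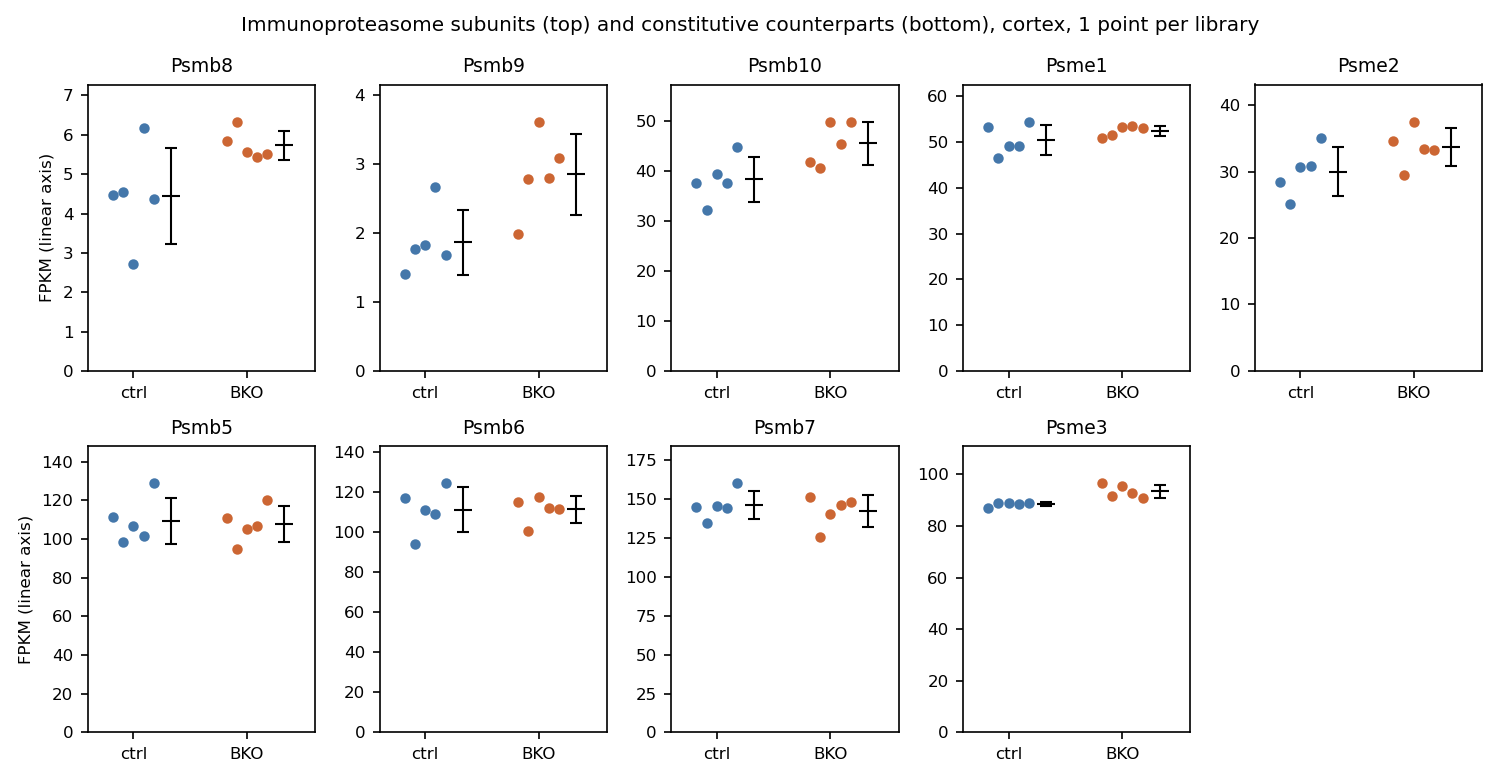
FPKM (linear y axis from 0) of the 5 immunoproteasome subunits in the top row and of Psmb5, Psmb6, Psmb7 and Psme3 in the bottom row; each point is a library, in order 1 to 5 within a group, and the black bars give the mean and SD of 5. Of the 9 genes, the groups do not overlap for Psme3 alone, where the ctrl libraries end at 88.9 FPKM and the BKO libraries begin at 90.7 FPKM.

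The constitutive catalytic subunits were nearly equal between the groups. Psmb5 was at 111, 98.6, 107, 101 and 129 FPKM in ctrl 1 to 5 and at 111, 95.03, 105, 107 and 120 FPKM in BKO 1 to 5. Psmb6 was at 117, 94.0, 111, 109 and 124 FPKM in ctrl and at 115, 100.2, 117, 112 and 112 FPKM in BKO. Psmb7 was at 145, 135, 146, 144 and 160 FPKM in ctrl and at 151, 125, 140.4, 146 and 148 FPKM in BKO. In each gene ctrl 5 held the highest value, and ctrl 2 or BKO 2 the lowest. The log2 differences were -0.021 for Psmb5 (95% interval -0.18 to 0.14, limma adjusted p = 0.923), 0.0060 for Psmb6 (-0.14 to 0.15, limma adjusted p = 0.980) and -0.038 for Psmb7 (-0.16 to 0.083, limma adjusted p = 0.799). The sign for Psmb5 turned when all libraries were scaled to the same sum (0.0010) and after quantile normalization (0.0030), so no direction can be given for it.

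Psme3, which forms the PA28 gamma ring of the nucleus and is not an interferon-induced subunit, was the only member whose groups did not overlap. It was at 87.0, 88.9, 88.7, 88.6 and 88.9 FPKM in ctrl 1 to 5 and at 96.5, 91.6, 95.4, 92.7 and 90.7 FPKM in BKO 1 to 5. Over all genes tested, 6.71% had groups that did not overlap and 3.62% had all BKO libraries above, so 1 of 38 members is no more than the background. Its difference was 5.63%, or 0.078 on the log2 scale (SE 0.0356, limma adjusted p = 0.272). Psme4, the PA200 activator, was at 17.99 ± 0.401 FPKM on average in the ctrl libraries and at 17.03 ± 0.940 FPKM in the BKO libraries (SD over 5 each; log2 difference -0.078, limma adjusted p = 0.518).

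The other core subunits varied little. In the alpha ring Psma5 was lowest, with means of 121 FPKM in ctrl and 119 FPKM in BKO, and Psma7 was highest, with 175 and 177 FPKM. Of the beta subunits without catalytic activity Psmb3 was lowest, with 113 and 116 FPKM, and Psmb1 was highest, with 199 and 200.1 FPKM. The log2 differences ran from -0.032 to 0.035 over the 7 alpha subunits and from 0.0070 to 0.050 over Psmb1, Psmb2, Psmb3 and Psmb4. Psmb10 was at 41.9 FPKM over all 10 libraries, below each constitutive core subunit.

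In the 19S particle Psmc4 was the lowest ATPase, and Psmc5 the highest, with means of 169.7 FPKM in ctrl and 175 FPKM in BKO. Of the other subunits Psmd11 was lowest, with 40.9 and 41.8 FPKM, and Psmd7 highest over all 10 libraries, with 133 and 127 FPKM, although in BKO Psmd4 was above it, at 131 FPKM. Of the 11 non-ATPase subunits 9 had a difference below 0 and 2 above, with a median of -0.042 on the log2 scale, and none passed the test. Psmd12, a scaffold subunit of the lid, went from 80.7 ± 3.48 to 75.3 ± 2.87 FPKM (SD over 5 libraries each; log2 difference -0.098, SE 0.0436, limma adjusted p = 0.255). Psmc4 went from 91.3 ± 3.32 to 96.2 ± 2.20 FPKM (0.075, limma adjusted p = 0.346) and Psmd13, another lid subunit, from 92.6 ± 2.52 to 87.9 ± 5.31 FPKM (-0.076, limma adjusted p = 0.437). These 3 had the smallest p of the members outside the immunoproteasome, Psmb5, Psmb6, Psmb7 and Psme3. Over the 6 ATPases the differences ran from -0.074 to 0.075.

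The constitutive subunits were measured tightly. Their SEs were 0.0356 to 0.0730 on the log2 scale, and all 33 of the 95% intervals lay between -0.20 and 0.16. The coefficient of variation between libraries had a median of 4.0% in ctrl and 4.82% in BKO, against 12.2% and 8.55% for the 5 immunoproteasome subunits. Summed over the 33, the level was 3756 to 4017 FPKM in the ctrl libraries and 3645 to 4013 FPKM in the BKO libraries. BKO 2 was the lowest library for 14 of the 33 subunits and also had the lowest FPKM sum, and BKO 1 was the highest for 10. Both groups thus covered nearly the same range.

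To ask whether an immunosubunit moved differently from the subunit it replaces, their ratio was taken within each library. In the percentages given here the library's scaling cancels. In ctrl 1 to 5 Psmb8 stood at 4.02%, 4.60%, 2.56%, 6.08% and 3.39% of Psmb5, and in BKO 1 to 5 at 5.29%, 6.66%, 5.29%, 5.08% and 4.58%. Psmb9 stood at 1.196%, 1.87%, 1.65%, 2.44% and 1.35% of Psmb6 in ctrl and at 1.73%, 2.77%, 3.08%, 2.50% and 2.76% in BKO. Psmb10 stood at 25.9%, 23.9%, 27.0%, 26.1% and 28.0% of Psmb7 in ctrl and at 27.7%, 32.3%, 35.5%, 31.1% and 33.6% in BKO. The first of these ratios overlapped broadly, and in the other two 4 of 5 BKO libraries lay above every ctrl library. Constitutive transcripts thus outnumbered those of their immune counterparts per length in every library of both groups.

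Before the log2 ratio was taken, 0.5 FPKM was added to both levels, so for low genes the scaling cancels only in part. The difference in the log2 ratio was 0.39 (SE 0.208) for Psmb8 to Psmb5, with p = 0.119 in an exact permutation test, 2-sided. For Psmb9 to Psmb6 it was 0.50 (SE 0.194, exact permutation p = 0.0397) and for Psmb10 to Psmb7 it was 0.285 (SE 0.0702, exact permutation p = 0.0159). Adjusted over the 5 ratios tested, these became 0.198, 0.0992 and 0.0794, so no ratio passed; the smallest p that 5 against 5 libraries allow is 0.00794. Without ctrl 4 all 3 passed (adjusted exact permutation p = 0.0397 each), and without BKO 1 the ratios of Psmb9 and Psmb10 passed (0.0397 each). Among the 4 libraries with low Ttr, 2 in each group, the differences were -0.035, 0.285 and 0.41. They were 0.67, 0.64 and 0.20 among the 6 with high Ttr. Over all libraries, with 0.1 or 1 FPKM added instead, Psmb9 to Psmb6 was at 0.585 or 0.42 (adjusted exact permutation p = 0.0794 and 0.119).

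For PA28, Psme1 was at 57.1 ± 4.00% of Psme3 in ctrl and 56.2 ± 2.25% in BKO (SD over 5 libraries each; log2 difference -0.023, SE 0.0517, exact permutation p = 0.706, 0.706 adjusted over the 5 ratios). Psme2 was at 33.9 ± 4.05% of Psme3 in ctrl and 36.0 ± 2.52% in BKO (0.089, SE 0.0892, exact permutation p = 0.349, 0.437 adjusted). The BKO libraries lay inside the ctrl range for both.

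**Figure D3:**
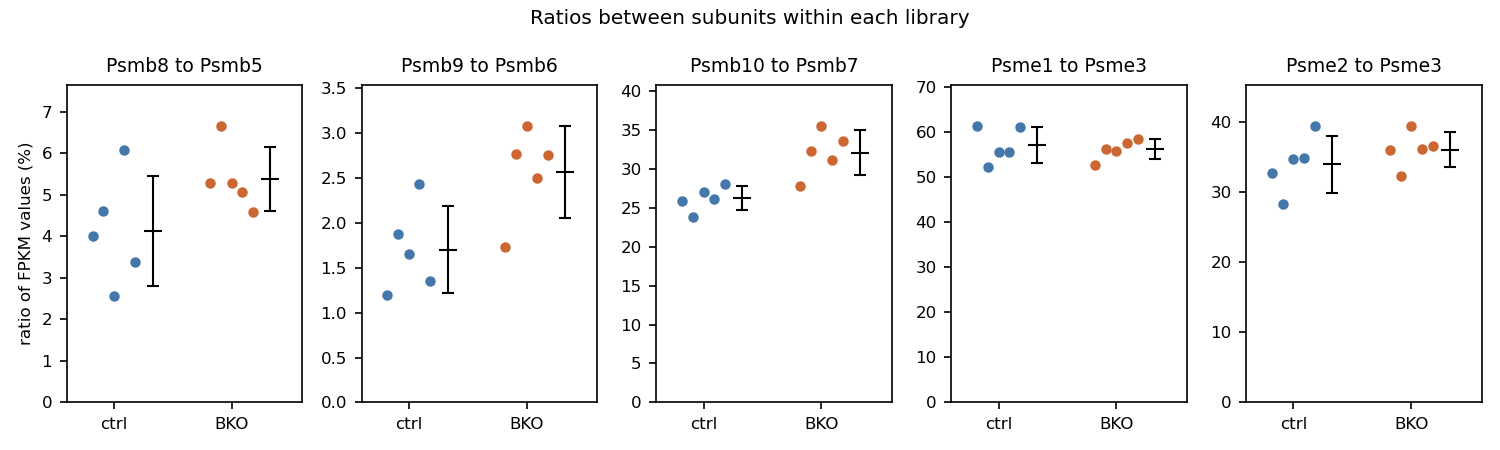
FPKM of the first-named subunit as a percentage of the second within each library (linear y axis from 0), with the mean and SD of 5 libraries a group in black. Psmb10 to Psmb7 was 26.2 ± 1.54% in ctrl and 32.05 ± 2.91% in BKO, while both PA28 ratios overlap fully.

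Part of the genes that regulate the constitutive proteasome rose. NRF1 (Nfe2l1) is the transcription factor that raises proteasome genes when the particle is inhibited, after processing by Ngly1, Vcp and Ddi2. Of 12 tested genes of its pathway and of the related NRF2 pathway, 3 rose and 0 fell, with a median log2 difference of 0.066. Nfe2l1 was at 136, 144, 139, 139.8 and 148 FPKM in ctrl 1 to 5 and at 173, 168, 165, 169 and 159 FPKM in BKO 1 to 5, with no overlap. It rose by 0.24 (SE 0.0383, limma adjusted p = 0.00112), and by 0.22 to 0.25 with each library left out. Nfe2l2, the NRF2 factor of the oxidative stress response, rose by 0.60 (SE 0.0815, limma adjusted p = 0.000241), and Mafg, a small partner of both, by 0.25 (SE 0.0573, limma adjusted p = 0.0155). The processing factors Ngly1, Vcp and Ddi2 did not pass.

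Assembly chaperones and ubiquitin genes gave no call. Of 9 tested assembly chaperones 0 passed at an adjusted limma p under 0.05, and 1, Psmg2, had an unadjusted p under 0.05. Pomp, the chaperone that matures the beta ring and is needed for immunoproteasome assembly, averaged 204 ± 13.1 FPKM in the ctrl libraries and 198 ± 12.1 FPKM in the BKO libraries (SD over 5 each; log2 difference -0.039, limma adjusted p = 0.776). Of 5 tested further subunits and deubiquitinases such as Adrm1 and Usp14, 0 passed and 0 had an unadjusted limma p under 0.05. The testis subunit Psma8 and the thymus subunit Psmb11 lay below the filter, at 0.390 FPKM or less. Of 12 ubiquitin genes, shuttle factors and activating enzymes 0 passed, and 1, Ubb, had an unadjusted limma p under 0.05. Of 6 peptidases listed as cytosolic, 1 rose, namely Nln by 0.30 (SE 0.0741, limma adjusted p = 0.0244). Whether Nln acts in the cytosol or on proteasome products was not tested. Its call was lost with any of 6 libraries left out (limma adjusted p = 0.0523 to 0.0685).

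Genes that act on the immunoproteasome, or after it, rose in part. Of 10 tested interferon regulators 2 rose and 0 fell. They were Irf9, by 0.44 (SE 0.0757, limma adjusted p = 0.00191), and Irf1, by 0.46 (SE 0.120, limma adjusted p = 0.0362). Irf1, a factor known to drive Psmb8, Psmb9 and Psmb10, was at 4.72, 4.83, 5.60, 6.93 and 6.02 FPKM in ctrl 1 to 5 and at 6.80, 8.38, 6.50, 9.15 and 8.73 FPKM in BKO 1 to 5. Its groups overlapped through ctrl 4, and its call was lost with any of 6 libraries left out and without the filter (limma adjusted p = 0.0756 to 0.0970). Nlrc5, the MHC class I transactivator, which also acts on Psmb9, lay below the filter at 0.150, 0.150, 0.260, 0.190 and 0.110 FPKM in ctrl 1 to 5 and 0.470, 0.560, 0.560, 0.320 and 0.340 FPKM in BKO 1 to 5. Every BKO library was above every ctrl library, and without the filter it passed (0.495, SE 0.0975, limma adjusted p = 0.0129). Ifng and Ifnb1, which encode interferons, were listed at 0 in all 10 libraries.

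Of 13 tested genes that carry peptides from the proteasome to the surface, 5 rose and 0 fell, with a median log2 difference of 0.22. The smallest p were those of the heavy chains H2-D1 (0.745, SE 0.0625, limma adjusted p = 2.31e-06) and H2-K1 (0.63, SE 0.0664, limma adjusted p = 2.27e-05), of the light chain B2m (0.34, SE 0.0550, limma adjusted p = 0.00115) and of H2-Q4 (0.75, SE 0.146, limma adjusted p = 0.00509). Reads can be divided among the near-identical H2 genes. Tap2, which neighbours Psmb8, was at 5.15, 4.95, 4.52, 6.37 and 5.58 FPKM in ctrl 1 to 5 and at 6.98, 7.26, 6.89, 7.14 and 8.87 FPKM in BKO 1 to 5, without overlap (0.45, SE 0.101, limma adjusted p = 0.0142). Tap1, which shares its upstream region with Psmb9 in the sequence above, was at 1.34, 1.22, 1.71, 1.58 and 1.78 FPKM in ctrl and at 2.06, 3.19, 2.13, 1.67 and 2.68 FPKM in BKO. Its difference of 0.47 (SE 0.155, limma adjusted p = 0.102) was near the 0.50 of Psmb9, and neither passed.

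**Figure D4:**
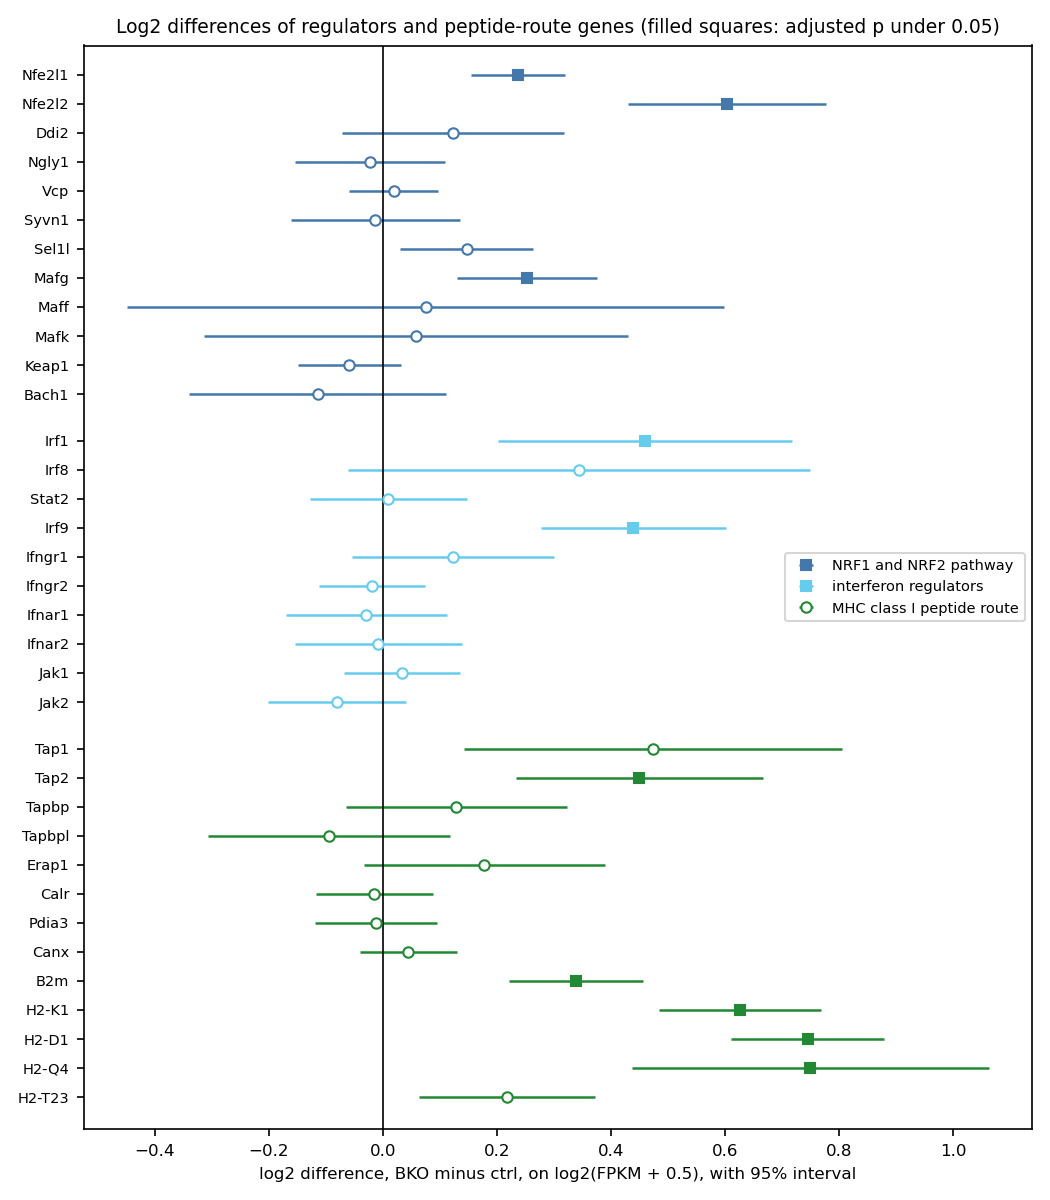
Log2 difference between BKO and ctrl (x axis, on log2(FPKM + 0.5)) with 95% intervals from 5 libraries a group, for tested genes of the NRF1 and NRF2 pathway, interferon regulators and the MHC class I peptide route. Filled squares mark the 3, 2 and 5 genes that passed, such as Nfe2l1 at 0.24, Irf9 at 0.44 and H2-D1 at 0.745.

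Markers of microglia, endothelial cells and immune cells of the blood were read beside these values. Of 12 microglia markers 2 rose, C1qa by 0.39 (SE 0.0656, limma adjusted p = 0.00156) and Ctss by 0.33 (SE 0.0688, limma adjusted p = 0.00862). At an unadjusted limma p under 0.05 there were 4 higher and 1 lower, P2ry12, a marker of resting microglia (33.9 FPKM on average in ctrl and 30.2 in BKO). The summed level of the 12 was 407 to 499.5 FPKM in ctrl and 470 to 531 FPKM in BKO. Of 6 endothelial markers 0 passed, but all 6 had a log2 difference above 0, with a median of 0.21. At an unadjusted limma p under 0.05 there were 2, Ly6c1 (0.41) and Slco1a4 (0.30). The sums were 73.4 to 91.8 FPKM in ctrl and 73.5 to 108 FPKM in BKO. T and NK cell markers were near 0: of the 9 found, 2 passed the filter (Cd4 and Lck) and 0 were called or had an unadjusted limma p under 0.05, with sums of 5.2 to 7.72 FPKM in ctrl and 4.52 to 6.22 FPKM in BKO. Of 5 B cell markers 1 was tested and 0 were called or had an unadjusted limma p under 0.05 (sums of 0.570 to 1.18 FPKM in ctrl and 0.240 to 2.03 FPKM in BKO). Of 3 tested monocyte and neutrophil markers 1 rose, Lyz2 (limma adjusted p = 5.80e-05), from 15.5 to 17.3 FPKM in ctrl to 24.6 to 35.1 FPKM in BKO. The other 2 had log2 differences below 0, S100a8 with -0.336 and S100a9 with -0.566, and neither passed. S100a9 was at 3.41 to 10.27 FPKM in ctrl. The list's sums were 19.1 to 32.8 FPKM in ctrl and 27.9 to 81.3 FPKM in BKO, where the highest was BKO 2 alone, with S100a9 at 30.96 FPKM against 2.13 to 4.08 FPKM in the other BKO libraries. The part of these cells in the immunoproteasome values was not tested.

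Among markers of other brain cells, 9 of 9 oligodendrocyte markers fell, with summed levels of 2925 to 3496 FPKM in ctrl and 986 to 1339 FPKM in BKO. Among 8 astrocyte markers 4 rose, namely Gfap, Aldh1l1, Aqp4 and Slc1a3, while Slc1a2, Gja1, Sox9 and Aldoc did not pass. Their sums were 1763 to 1970 FPKM in ctrl and 2163 to 2418 FPKM in BKO, with means of 1873 and 2287 FPKM. Most of that rise lay in Gfap, which averaged 85.4 FPKM in ctrl and 434.9 FPKM in BKO (log2 difference 2.33, limma adjusted p = 1.23e-09). Among 8 neuron markers 1 fell, Snap25 (sums of 4493 to 4947 FPKM in ctrl and 4131 to 4563 FPKM in BKO). None of the 8 choroid plexus and 5 red blood cell markers passed or had an unadjusted limma p under 0.05. Their sums were 44.7 to 2614 and 249 to 354 FPKM in ctrl, and 74.4 to 2760 and 207 to 738 FPKM in BKO. The part of these shifts in the values of the immunoproteasome and constitutive subunits was not tested.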

How the data were processed

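Cortex RNA of 10 libraries was measured, 5 labelled ctrl and 5 labelled BKO. The authors deposited FPKM values rounded to 2 decimals, per the file headers, and STAR, HTSeq and mm39 are named, without versions, per the submitters' processing notes. Annotation, filters and the FPKM formula are not given in the sources used here. The table had 0 columns of other samples. With no counts, precision from depth is unknown. The relative depth was fitted to pairs of libraries, of which 40 of 45 lay within 0.03 log2 of it.

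Genes at 0.5 FPKM or more in at least 5 libraries were tested, 14447 in all, on log2(FPKM + 0.5), a scale that understates changes of low genes, with limma 3.58.1 in R 4.3.3 (trend, 2-sided). A gene rose or fell at a Benjamini-Hochberg adjusted p under 0.05 over all genes. SE is limma's and SD is between libraries. Ratios of subunits, as log2 with 0.5 FPKM added to both, used an exact permutation test, 2-sided, adjusted over 5 ratios. Their SE came from the spread between libraries. Python 3.11.15 with pandas 2.3.3 and matplotlib 3.10.9 made summaries and figures.

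Members, 7 pathway lists, 10 marker lists and tests were chosen with earlier results of these data known. Values per library were given for the 5 immunoproteasome subunits, Psmb5, Psmb6, Psmb7 and Psme3 and any other member that passed. Of the remaining members the 3 with the smallest p and the extremes of level in each role were named. Pathway genes that passed were named, at most 4 a list, and Nfe2l1, Pomp, Irf1, Nlrc5, Tap1, Tap2 and Chchd3 always. Others, such as Psmg2, Ubb, Psme4, Psme2b, Slc17a7, Ngly1, Vcp, Ddi2, C1qa, Ctss, P2ry12, S100a9, Psmd4 and Lyz2, were named for their role or after their values were seen. Paaf1 and Trbc2 were not analysed here, and 1 gene of the interferon regulators is not reported here. The settings varied were the pseudocount (0.1 or 1), the filter (none, or 2 FPKM), rescalings, quantile normalization, the replicate block, library weights, a robust fit and each library left out.

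On simulated data of the same size (14338 genes after the filter), log2 changes of 0.25, 0.5, 1 and 2 were each planted in 50 genes. They were recovered for 36%, 86%, 100% and 100% of these genes, and 7 of 14138 genes left alone were called. The planted genes were drawn only from above a set mean level. Psmb9 did not reach that level, so these shares do not apply to it. They are averages over genes of differing spread and need not hold for any single member. Psmb8 had an SE of 0.149, against 0.0356 to 0.0730 for the constitutive members. The promoters are from RefSeq on GRCm38.p6.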

Additional observations from a re-analysis of the deposited data

Results flagged for a closer look

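Among 86 groups of 5 values (38 members and 5 ratios in 2 genotypes), 1 held a library far from its fellows, where chance gives about 1 in 20. Psme3 was at 87.01 FPKM in ctrl 1 and at 88.55 to 88.89 FPKM in the other 4 ctrl libraries. The gap was small in size and stood out because the other 4 lay so close together.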

How the results depend on the processing

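Of 927 checks of 44 results under 22 alternatives, 851 were rated as unchanged. For single genes and tested ratios this meant the same direction and side of the threshold. Counts had to stay within a set fold. Medians, and ratios in the sets split by Ttr, had to stay within an SD between libraries, whatever their sign. The constitutive median of -0.018 was thus rated as unchanged at 0.003 with equal sum per library. With each library left out, 375 to 512 genes rose and 261 to 346 fell, and 0 to 1 of the members, all from the immunoproteasome, rose, while 0 constitutive members passed in any of these. The replicate numbers did not pair the libraries (correlations of same-numbered deviations -0.169 to 0.086). In the replicate block 1 member rose, the immunoproteasome subunit Psmb10 (limma adjusted p = 0.0193). Leaving out 1 library gave log2 ratio differences of 0.25 to 0.529 for Psmb8 to Psmb5, 0.404 to 0.613 for Psmb9 to Psmb6, 0.248 to 0.336 for Psmb10 to Psmb7, -0.054 to 0.003 for Psme1 to Psme3 and 0.025 to 0.144 for Psme2 to Psme3.

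In the 6 libraries with high Ttr 221 genes rose and 172 fell, and in the 4 with low Ttr 143 and 101, with fewer libraries in the fit. The immunoproteasome median was 0.116 in the former and 0.344 in the latter. In the latter the ratio differences were -0.035 (Psmb8 to Psmb5), 0.407 (Psmb10 to Psmb7), 0.075 (Psme1 to Psme3) and 0.261 (Psme2 to Psme3, which was -0.025 in the former). The cause was not tested. Differences near 0 changed sign. With each library left out Psmb5 ran from -0.062 to 0.039, Psmb6 from -0.052 to 0.048 and Psmb7 from -0.065 to 0.007. Psmb5 went to 0.001 (equal sum), 0.003 (quantile), 0.039 (without ctrl 5), 0.023 (without BKO 2) and 0.083 (low Ttr). Psmb6 went to -0.052, -0.007 and -0.013 (without ctrl 2, BKO 1 or BKO 3) and -0.107 (high Ttr). Psmb7 went to 0.007 (without BKO 2) and 0.039 (low Ttr), Psme1 to -0.014 (high Ttr) and Pomp to 0.026 (low Ttr). Chchd3 passed as higher in BKO after equal sum or quantile scaling, without ctrl 5 and without BKO 4. In the sets split by Ttr, Nfe2l1 was at 0.239 and 0.233 and did not pass in either.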
